A study of Macaca mulatta with 34 samples.

Results

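The 10 genes described here, CHI3L1, CP, S100A10, GFAP, VIM, CD44, SERPINA3, OSMR, TIMP1 and LCN2, are genes that reactive astrocytes are known to raise. They were taken by symbol: each of the 10 matched 1 Ensembl macaque identifier among the 34847 identifiers present in the count tables of the deep cerebellar nuclei (DCN), of which 24009 have a symbol. Their counts were read in all 22 DCN libraries of the 34 samples of the series. The libraries are total RNA of rhesus macaques, whose DCN, through which the cerebellum sends its signals out, had been injected with the treatment under MRI guidance.

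In Study 1, which looked for the cause of toxicity after the vector AAV.miS1, 6 libraries came from animals given AAV.miS1 and 4 from animals given vehicle. AAV.miS1 is an adeno-associated virus (AAV) of the rAAV2/1 type whose cargo is an artificial microRNA against ATXN1. Study 2 tested other cargo layouts for the responses they raise, with 3 libraries in each of 4 groups. By their names, StufferOnly carried filler DNA, miSCA7Stuffer a microRNA against ATXN7 with the filler, and intmiS1 the ATXN1 microRNA in another configuration, and empty capsid was the control. Vehicle controls thus had the injection without capsid, and the Study 2 controls had the injection with capsid. Each of the 22 DCN libraries carries its own animal identifier in the labels. Age, dose, time after injection and the promoters of the constructs are not stated in the labels. The replicate numbers of Study 1 are names only.

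Astrocytes answer injury, inflammation and loss of neighbouring neurons by changing shape and gene expression. They enlarge their skeleton of intermediate filaments, raise receptors for cytokines and for the extracellular matrix, and secrete protease inhibitors, acute-phase proteins and metal carriers. Cytokines of the interleukin-6 family, among them oncostatin M, drive part of this programme through the shared receptor subunit IL6ST and the transcription factor STAT3. Several of the 10 genes are not exclusive to astrocytes: VIM, CD44, S100A10 and TIMP1 are also active in macrophages, fibroblasts and vessels, CHI3L1 in macrophages and LCN2 in neutrophils.

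Depth was uneven. Assigned counts were 2049685 to 4810852 in Study 1 apart from vehicle replicate 2 with 87741. In Study 2 the 10 libraries counted with featureCounts held 20978241 to 39792653, and intmiS1 replicates 1 and 2, counted with STAR, held 5169866 and 4858179. Levels below are CPM, counts scaled to the same library total with TMM factors fitted within each study, so they are compared within a study, and they are not corrected for gene length, so they are not compared between genes. In vehicle replicate 2, 1 count equals 10.3 CPM. ATXN1, the target of miS1, had a lowest, median and highest level of 49.3, 57.9 and 89.7 CPM in AAV.miS1 libraries, against 98.1, 103, 92.0 and 90.6 CPM in vehicle libraries (log2 fold change -0.62, SE 0.18, adjusted p = 0.0604). No AAV.miS1 library reached a vehicle library, and replicate 1, at 89.7 CPM, was the closest. ATXN1 was 50.5, 28.5 and 44.3 CPM in intmiS1 libraries and 45.5, 53.8 and 57.6 CPM in empty capsid libraries, and ATXN7, the target of miSCA7, was 37.0, 31.2 and 25.03 CPM in miSCA7Stuffer libraries and 36.6, 32.8 and 34.5 CPM in empty capsid libraries, both with overlap. The 15 markers of resting astrocytes (ALDH1L1, AQP4, SLC1A2 and others, without any of the 10 genes) were present in every group, with a summed level of 2773 to 13893 CPM in AAV.miS1, 11526 to 18625 in vehicle, 4893 to 8649 in StufferOnly, 4001 to 9661 in miSCA7Stuffer, 9215 to 11847 in intmiS1 and 12893 to 14098 in empty capsid libraries.

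In AAV.miS1 libraries 8 of the 9 genes that could be tested rose, and GFAP, the best known of them, did not pass. The median log2 fold change of the 9 was 2.75, against 0.02 over the 13383 genes tested, and for each of the 8 the lowest AAV.miS1 library was above the highest vehicle library. Across all genes tested, 7.5% were called, 7.22% as higher and 0.284% as lower, and 7.47% lay wholly above vehicle. DESeq2 called 8 of the 10, beside 7.01% of all genes called higher. LCN2 had too few counts to be tested. In tissue RNA such as this, a change in the number of cells of a type and a change in RNA per cell cannot be told apart.

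The intermediate filaments parted. GFAP, the filament of mature astrocytes, had a lowest, median and highest level of 2074, 13852 and 20645 CPM in AAV.miS1 libraries, against 8614, 8812, 7851 and 8143 CPM in vehicle libraries. Replicate 1 lay far below every vehicle library and the other 5 lay above all 4 of them, so the groups overlapped (log2 fold change 0.60, SE 0.48, adjusted p = 0.425). Without AAV.miS1 replicate 1 the log2 fold change was 0.82 with adjusted p = 0.0745. VIM, the filament of immature and reactive astrocytes, had a lowest, median and highest level of 310.2, 1872 and 4064 CPM in AAV.miS1 libraries, against 61.9, 144, 99.8 and 91.6 CPM in vehicle libraries. Every AAV.miS1 library was above every vehicle library, and the highest VIM was in replicate 1, the library with the lowest GFAP (log2 fold change 4.31, SE 0.73, adjusted p = 0.0275).

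Among receptors and membrane-linked proteins, CD44, the receptor for hyaluronan and osteopontin, had a lowest, median and highest level of 346, 659 and 1173 CPM in AAV.miS1 libraries, against 149, 227, 138 and 106 CPM in vehicle libraries. The groups did not overlap (log2 fold change 2.27, SE 0.42, adjusted p = 0.0275). OSMR, the oncostatin M receptor subunit that pairs with IL6ST, had a lowest, median and highest level of 62.6, 82.3 and 125 CPM in AAV.miS1 libraries, against 30.1, 31.0, 23.8 and 34.3 CPM in vehicle libraries. It moved least of the 8 called genes, again without overlap, although the value of vehicle replicate 2 rests on 3 counts (log2 fold change 1.60, SE 0.26, adjusted p = 0.0275). S100A10, which binds annexin A2 at the membrane and served in mouse work as a marker of the astrocyte state named A2, had a lowest, median and highest level of 28.5, 49.6 and 100.4 CPM in AAV.miS1 libraries. It was 7.31, 10.3, 9.50 and 10.54 CPM in vehicle libraries (log2 fold change 2.66, SE 0.43, adjusted p = 0.0275). These values lay below the lowest AAV.miS1 library, but that of vehicle replicate 2 is 1 count, under the 31.0 CPM that 3 counts make there, so its separation from the lowest AAV.miS1 library is not shown at this depth.

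The secreted products rose as well, apart from LCN2, which could not be tested. CHI3L1, a secreted chitinase-like glycoprotein, had a lowest, median and highest level of 461, 597 and 811 CPM in AAV.miS1 libraries, against 121, 114, 79.1 and 60.6 CPM in vehicle libraries. Its AAV.miS1 libraries lay within a narrow range well clear of vehicle (log2 fold change 2.77, SE 0.27, adjusted p = 0.00561). SERPINA3, an acute-phase serine protease inhibitor, had a lowest, median and highest level of 149, 777 and 1081 CPM in AAV.miS1 libraries, against 51.2, 124, 49.7 and 14.2 CPM in vehicle libraries. Replicate 1 was the lowest AAV.miS1 library and stood just above the highest vehicle library, replicate 2, whose value rests on 12 counts. The other 5 AAV.miS1 libraries were at 553 CPM or more (log2 fold change 3.90, SE 0.69, adjusted p = 0.0275). TIMP1, an inhibitor of matrix metalloproteinases, had a lowest, median and highest level of 61.2, 189 and 257 CPM in AAV.miS1 libraries, against 16.8, 51.6, 24.3 and 27.02 CPM in vehicle libraries. The groups did not overlap, although the highest vehicle value, in replicate 2, rests on 5 counts (log2 fold change 2.75, SE 0.53, adjusted p = 0.0275).

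CP, the copper-carrying ferroxidase ceruloplasmin, which astrocytes hold at their surface and which lets iron leave the cell, had a lowest, median and highest level of 53.8, 218 and 420.1 CPM in AAV.miS1 libraries. In vehicle libraries it was 12.9, 0, 6.43 and 8.90 CPM, where the 0 of replicate 2 allows up to 31.0 CPM by counting error alone. All 6 AAV.miS1 libraries were above that limit and above every vehicle library, and the log2 fold change was the largest of the 9 (4.73, SE 0.66, adjusted p = 0.0275). The low vehicle values depend on the strand counted: vehicle libraries held 30, 0, 23 and 27 counts on the strand of the gene and 22, 2, 36 and 33 on the other strand. In the unstranded counts the log2 fold change was 4.23. These counts, 36, 0, 39 and 37 in vehicle libraries, are not the sum of the 2 strands, and a fold change on that sum was not computed. LCN2, a siderophore-binding lipocalin of the acute phase, had 1, 12, 2, 3, 1 and 2 counts in the 6 AAV.miS1 libraries, against 1, 0, 1 and 0 counts in vehicle libraries. At this depth a difference was not detectable in 5 of the 6 AAV.miS1 libraries, and replicate 2, with 12 counts, stood alone.

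**Figure D1:**
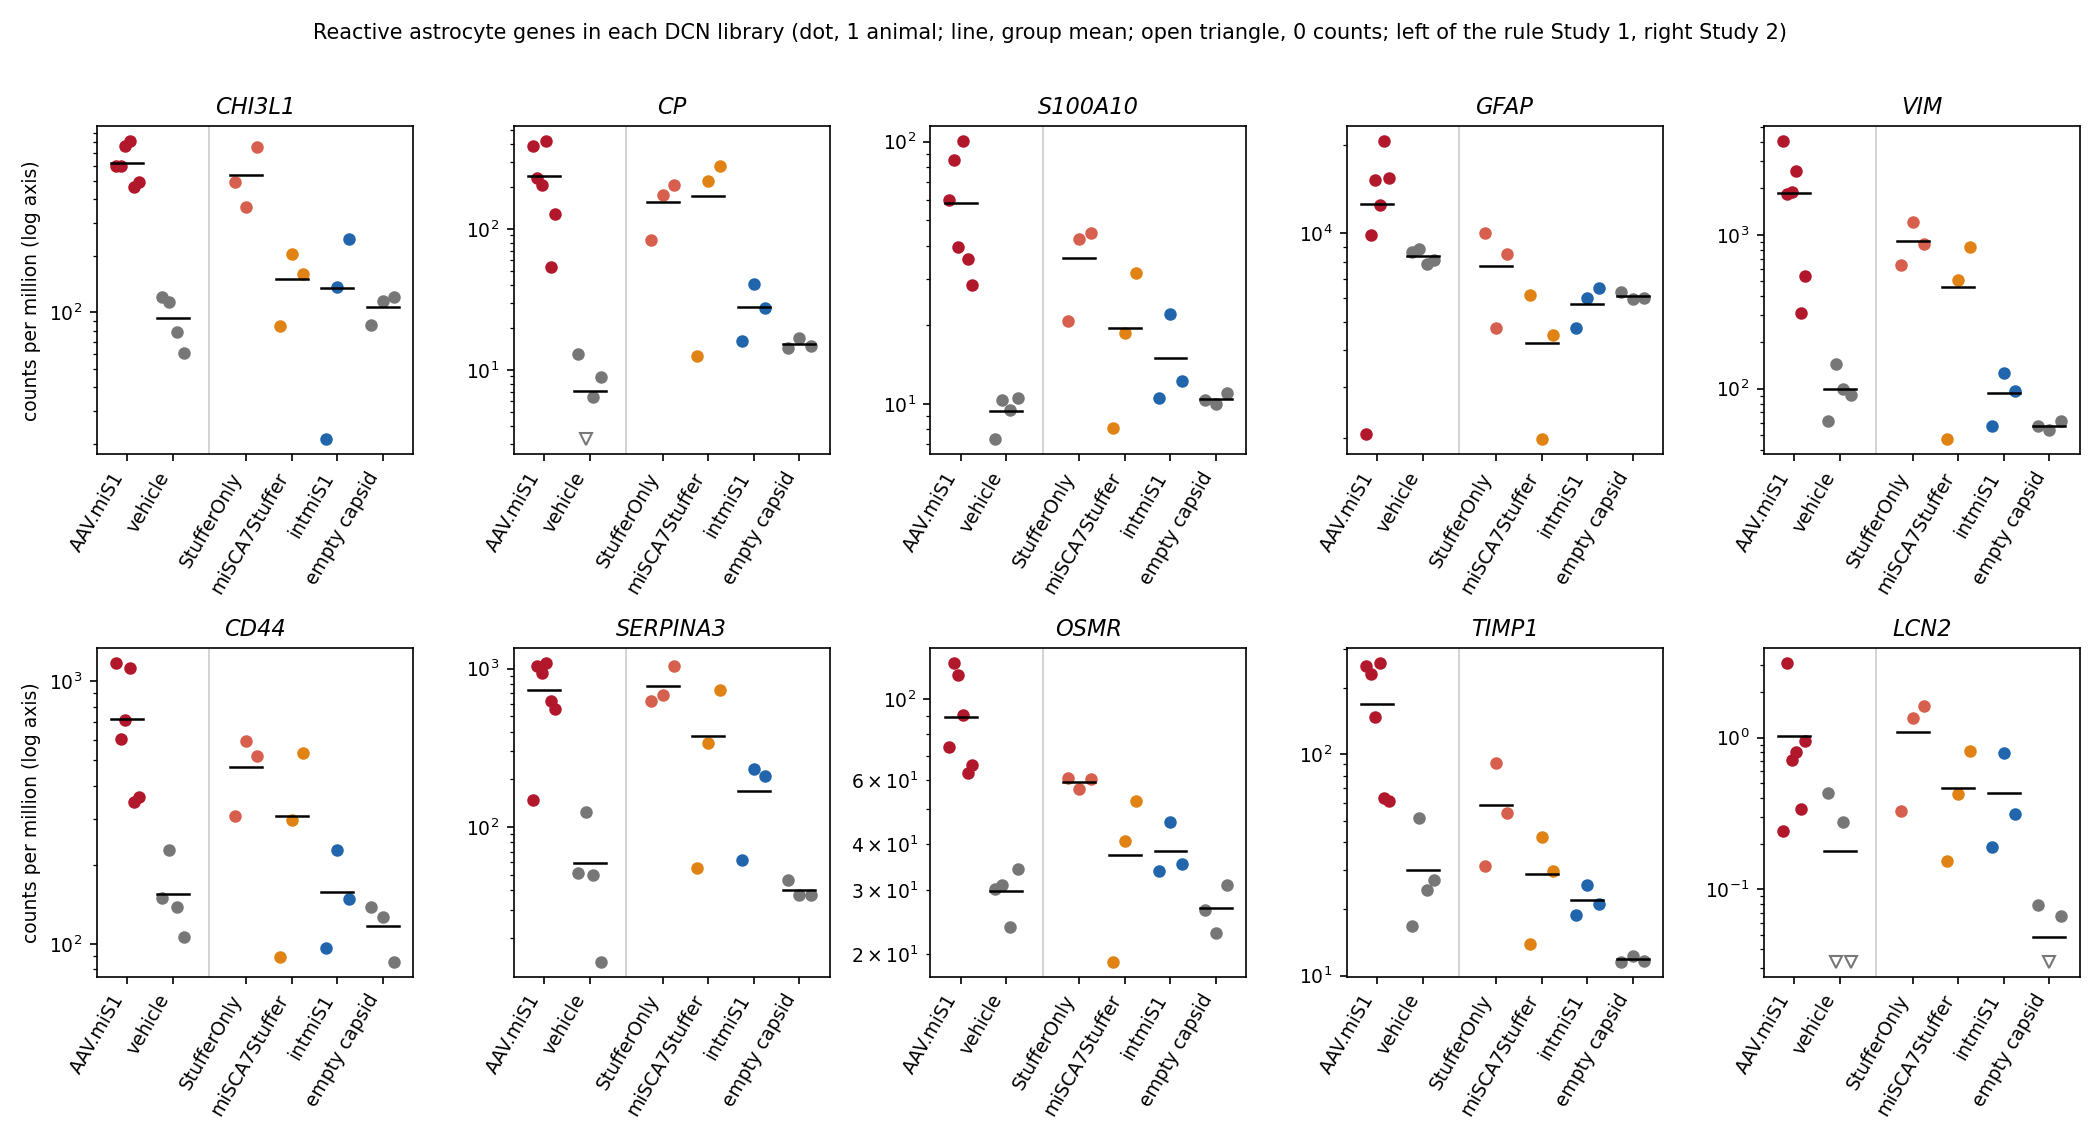
CPM of each gene (log axis) in the 22 DCN libraries, by group, with a dot for each animal, a line at the group mean and an open triangle for 0 counts. Left of the grey rule are AAV.miS1 and vehicle, right of it StufferOnly, miSCA7Stuffer, intmiS1 and empty capsid. VIM, CD44, SERPINA3 and CHI3L1 lie above their controls in every AAV.miS1 and StufferOnly library, GFAP overlaps its controls, and miSCA7Stuffer replicate 1 lies with or near empty capsid in most panels.

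The 6 AAV.miS1 libraries were not alike. Replicates 1 to 4 held 1845 to 4064 CPM of VIM, and replicates 5 and 6 held 310.2 and 536 CPM. TIMP1 and CD44 showed the same division, with TIMP1 at 148 CPM or more in replicates 1 to 4 and at 63.6 and 61.2 CPM in replicates 5 and 6. CP, S100A10, OSMR and CHI3L1 were also lower in replicates 5 and 6 than in each of replicates 1 to 4. CHI3L1 was 461 and 493 CPM there, against 597 to 811 CPM. SERPINA3, at 622 and 553 CPM in replicates 5 and 6, was lowest in replicate 1. GFAP was at its highest in replicates 5 and 6, with 20645 and 15466 CPM. The summed level of 6 neuronal markers in replicates 5 and 6 was 3388 and 2737 CPM, within the 1775 to 3488 CPM of vehicle libraries, and the summed astrocyte markers, 13893 and 11543 CPM, were also within the vehicle range. In replicate 1 the neuronal sum was 29.3 CPM and the astrocyte sum 2773 CPM, both the lowest of the 10 Study 1 libraries, while its summed level of 12 microglia and macrophage markers, 6369 CPM, was the highest. The part of these cell markers in the levels of the 10 genes was not tested.

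The same division runs with the share of reads that found no place in the genome, which was 9.23% to 11.99% in AAV.miS1 replicates 1 to 4 and vehicle replicate 1, and 19.8% to 31.4% in AAV.miS1 replicates 5 and 6 and vehicle replicates 2 to 4. Within the libraries over 15%, 6 of the 9 genes were called, where 0.916% of all genes were called higher: CHI3L1 (log2 fold change 2.69), CP (3.603), S100A10 (1.67), VIM (2.07), CD44 (1.39) and SERPINA3 (3.96). OSMR (1.14, adjusted p = 0.0645), TIMP1 (1.197, adjusted p = 0.0627) and GFAP (1.14, adjusted p = 0.0579) were not. Within the libraries under 15% there was a single vehicle library, and the log2 fold changes are given with no test: 2.51 for CHI3L1, 4.58 for CP, 3.27 for S100A10, 5.39 for VIM, 2.59 for CD44, 3.96 for SERPINA3, 1.75 for OSMR, 3.71 for TIMP1 and 0.19 for GFAP. With this division as a term in the fit, 5 were called, where 1.1% of all genes were called higher, and VIM (3.08, adjusted p = 0.0666), CD44 (1.78, adjusted p = 0.0601) and TIMP1 (2.06, adjusted p = 0.0820) were not.

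The calls depended on single libraries. All 8 were kept without AAV.miS1 replicate 1, 2, 3, 5 or 6. Without AAV.miS1 replicate 4, or without vehicle replicate 1, 2 or 4, 1 call remained, and without vehicle replicate 3 there were 0 by edgeR, with all 8 genes still at an unadjusted p under 0.05. The same 5 fits called 0 to 3 genes among all genes tested. Over the 10 fits that each leave out 1 library, the log2 fold change ranged from 2.57 to 2.96 for CHI3L1, from 4.50 to 5.02 for CP, from 3.96 to 4.54 for VIM and from 3.47 to 4.25 for SERPINA3.

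In StufferOnly libraries 9 of the 10 genes rose over empty capsid, and GFAP was again the one that did not pass. Of the 9, LCN2 passed the filter on low counts only through vector libraries where it was high. The 9 called genes were higher in all 3 StufferOnly libraries than in any empty capsid library, with a median log2 fold change over the 10 of 2.32 against 0.02 over the 20882 genes tested. In this comparison 11.6% of all genes were called higher and 26.8% lay wholly above empty capsid. DESeq2 called 9 of the 10, beside 10.9% of all genes called higher.

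GFAP was 10023, 4758 and 8496 CPM in StufferOnly libraries, against 6325, 5974 and 6022 CPM in empty capsid libraries. Replicate 2 was below all 3 controls and replicates 1 and 3 above them (log2 fold change 0.34, SE 0.41, adjusted p = 0.584). VIM was 639, 1212 and 866 CPM in StufferOnly libraries, against 57.1, 53.9 and 61.4 CPM in empty capsid libraries (log2 fold change 3.98, SE 0.85, adjusted p = 0.0228). The StufferOnly library with the least GFAP, replicate 2, had the most VIM.

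CD44 was 306, 594 and 521 CPM in StufferOnly libraries, against 138, 126 and 85.6 CPM in empty capsid libraries (log2 fold change 2.02, SE 0.57, adjusted p = 0.0453). OSMR was 60.9, 56.7 and 60.3 CPM, against 26.5, 22.9 and 31.0 CPM (1.14, SE 0.32, adjusted p = 0.0438). Its StufferOnly values were the closest to each other of all 10 genes in that group, while S100A10 was lower in replicate 1 than in the others, with 20.7, 42.5 and 44.8 CPM in StufferOnly libraries, against 10.4, 9.97 and 11.0 CPM in empty capsid libraries (1.78, SE 0.47, adjusted p = 0.0374).

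CHI3L1 was 490.2, 363 and 758 CPM in StufferOnly libraries, against 85.4, 115 and 120.1 CPM in empty capsid libraries (log2 fold change 2.33, SE 0.37, adjusted p = 0.0181). SERPINA3 was 621, 685 and 1038 CPM in StufferOnly libraries, against 46.3, 37.2 and 37.2 CPM in empty capsid libraries (4.28, SE 0.79, adjusted p = 0.0194). Both were high in all 3 StufferOnly libraries with no overlap. CP was 84.2, 174 and 206 CPM in StufferOnly libraries, against 14.2, 16.9 and 14.9 CPM in empty capsid libraries (3.33, SE 0.90, adjusted p = 0.0408), and the labels and headers do not state whether these counts used strand. TIMP1 was 31.3, 91.6 and 54.1 CPM in StufferOnly libraries, against 11.6, 12.3 and 11.7 CPM in empty capsid libraries (2.31, SE 0.47, adjusted p = 0.0207). Replicate 1 had the lowest CP, TIMP1, VIM, CD44, S100A10, SERPINA3 and LCN2 of the 3 StufferOnly libraries.

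LCN2 could be tested in Study 2, where it passed the filter on low counts only through vector libraries in which it was high. Its call is therefore not independent of that filter. Without the filter 9 of the 10 genes were also called. LCN2 had 11, 29 and 52 counts in StufferOnly libraries, against 3, 0 and 2 counts in empty capsid libraries, which is 0.328, 1.35 and 1.62 CPM against 0.0781, 0 and 0.0663 CPM (log2 fold change 4.31, SE 0.99, adjusted p = 0.0266). It stayed a scarce transcript in every group. Of 10 neutrophil markers, S100A12 was at 0 in all 22 libraries and S100A8, S100A9 and ELANE did not exceed 0.381 CPM in any, and the sum of the 10 was 7.94 to 13.1 CPM in StufferOnly and 1.66 to 4.06 CPM in empty capsid libraries. CXCR2, the neutrophil chemokine receptor, was the single neutrophil marker of 3 tested that was called higher (log2 fold change 2.76, adjusted p = 0.0262). All 3 tested lay wholly above empty capsid, where 26.8% of all genes did. CSF3R was 3.10 to 5.80 CPM in StufferOnly libraries, against 0.929 to 3.01 CPM in empty capsid libraries. CAMP was 0.0597 to 1.58 CPM in StufferOnly and 0 in every empty capsid library. The part of these markers in the LCN2 counts was not tested.

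Leaving out StufferOnly replicate 1 kept 7 calls. Without StufferOnly replicate 2 or 3, or without empty capsid replicate 1, 2 or 3, 0 of the 10 passed by edgeR, and in each of these fits 9 had an unadjusted p under 0.05, with 0 to 53 genes called among all genes tested. The log2 fold changes over the 6 fits ranged from 3.71 to 4.17 for VIM, from 1.997 to 2.54 for CHI3L1, from 4.02 to 4.42 for SERPINA3 and from 0.12 to 0.60 for GFAP.

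**Figure D2:**
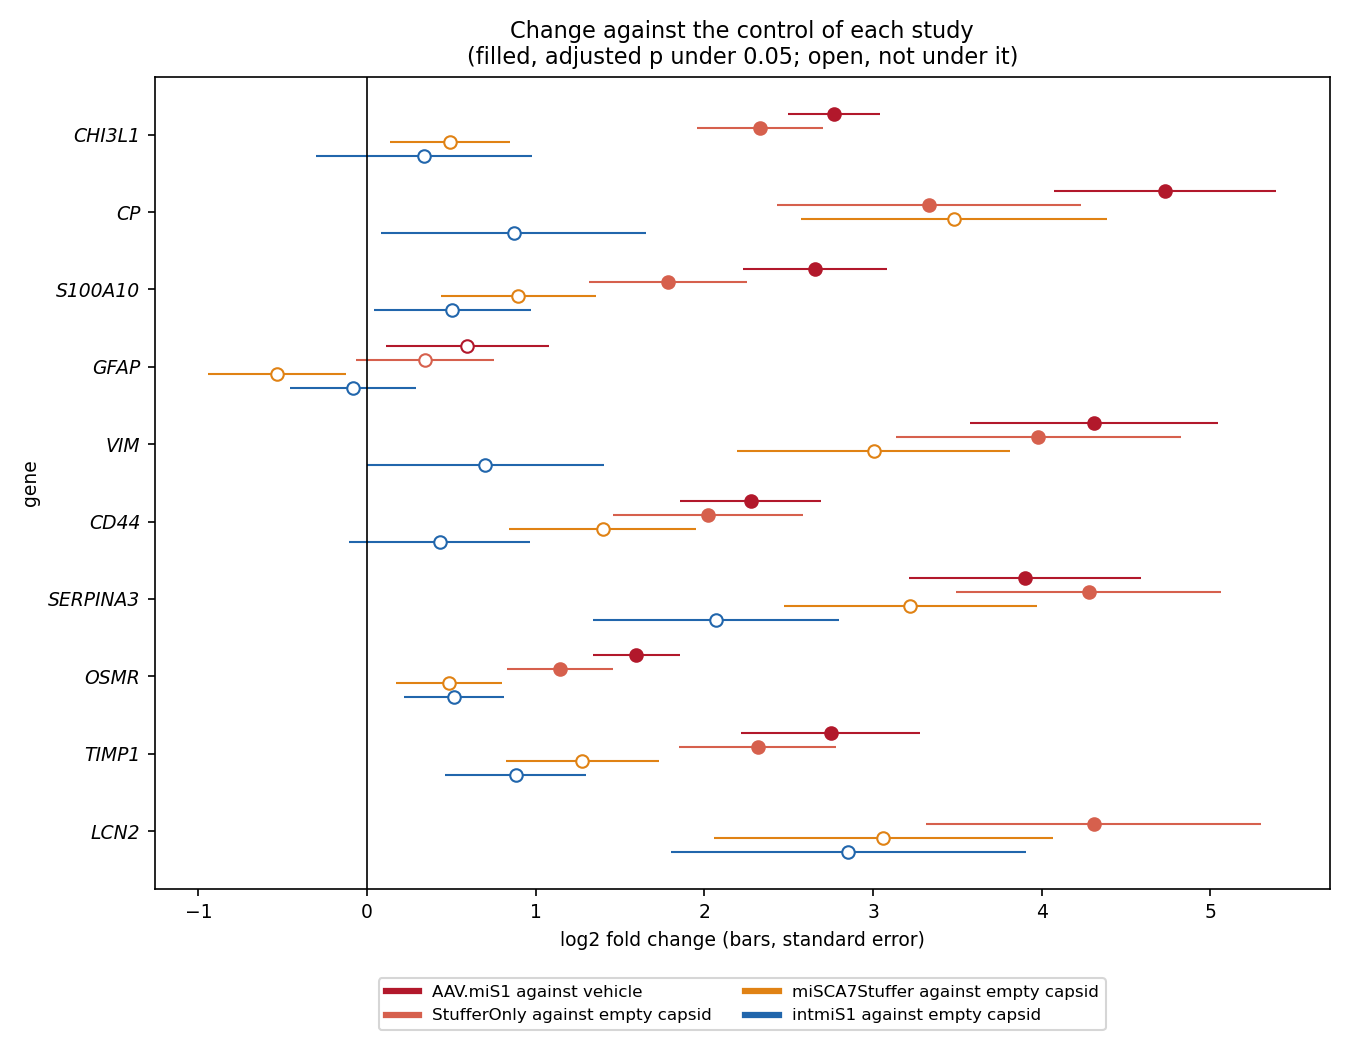
Log2 fold change of each gene (horizontal axis, bars 1 SE) in the 4 vector groups against the control of their own study. Filled dots passed an adjusted p under 0.05: 8 genes for AAV.miS1 and 9 for StufferOnly are filled, none for miSCA7Stuffer or intmiS1, and GFAP is filled in none of the 4.

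The ratio of VIM to GFAP within a library needs no scaling between libraries. VIM counts per 1000 GFAP counts had a lowest, median and highest value of 15.03, 156 and 1959 in AAV.miS1 libraries, against 7.19, 16.4, 12.7 and 11.2 in vehicle libraries. Replicate 5, at 15.03, lay inside the vehicle range, and the other 5 lay above it. In Study 2 the ratio was 63.7, 255 and 102 in StufferOnly libraries, 7.55, 255 and 185 in miSCA7Stuffer, 11.9, 21.1 and 14.8 in intmiS1, and 9.02, 9.02 and 10.2 in empty capsid libraries. Only miSCA7Stuffer replicate 1 was not above all 3 empty capsid libraries. A ratio shows unequal change of the pair and not which of them changed.

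Set against the 15 markers of resting astrocytes, GFAP looked different from its CPM. None of these 15 was called in AAV.miS1 by edgeR or DESeq2, and 2.88% of all genes lay wholly below vehicle, against 3 of the 15. Yet all 15 had a log2 fold change below 0, from -1.66 to -0.06 with a median of -0.72 (14 of 15 with the unmapped share as a term). In StufferOnly 1 of 15 was called lower (SLC4A4, a bicarbonate transporter, log2 fold change -1.37, adjusted p = 0.0246; 3.81% of all genes were called lower), the median was -0.97, and 14 of 15 lay wholly below empty capsid, where 22.2% of all genes did. GFAP as a percentage of the summed level of the 15 markers had a lowest, median and highest value of 74.8%, 150.2% and 199.6% in AAV.miS1 libraries, against 62.2%, 76.5%, 58.6% and 43.7% in vehicle libraries. It was 116%, 97.2% and 140.3% in StufferOnly libraries, 64.0%, 49.5% and 88.4% in miSCA7Stuffer, 44.0%, 65.2% and 54.9% in intmiS1 and 49.1%, 45.2% and 42.7% in empty capsid libraries. All 3 StufferOnly and all 3 miSCA7Stuffer libraries were above every empty capsid library on this scale, and in AAV.miS1 replicate 1 alone overlapped vehicle. miSCA7Stuffer replicate 2 was above by little, at 49.5% against 49.1%. In miSCA7Stuffer the 15 markers had a median log2 fold change of -1.34, with none called by edgeR. Of the 15, 12 lay wholly below empty capsid, where 12.7% of all genes did. The CPM of GFAP itself was below every empty capsid library in miSCA7Stuffer replicates 2 and 3. These ratios were formed after the levels had been seen and were not tested.

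**Figure D3:**
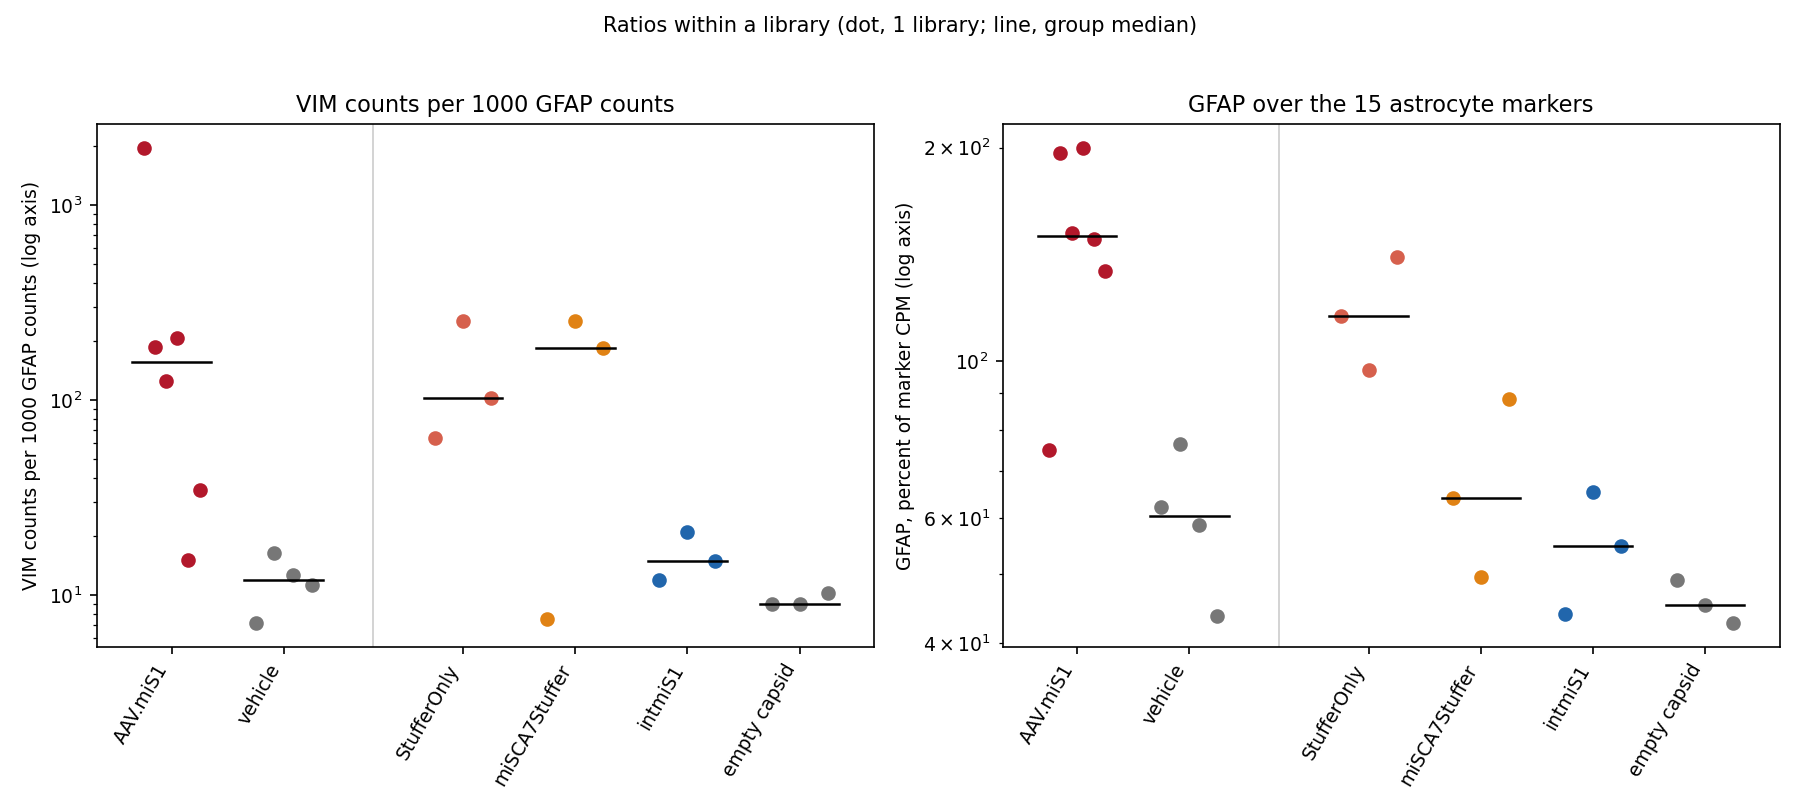
Left, VIM counts per 1000 GFAP counts (log axis). Right, GFAP as a percentage of the summed level of 15 resting astrocyte markers (log axis), a dot for each library and a line at the group median. On the left 5 of 6 AAV.miS1 libraries and all 3 StufferOnly libraries lie above their controls, and on the right the StufferOnly libraries lie at 97.2% to 140.3% above empty capsid at 42.7% to 49.1%.

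miSCA7Stuffer did not pass for any of the 10 genes against empty capsid, and its libraries divided. edgeR called 0 of 10, although 6 had an unadjusted p under 0.05, and DESeq2 called 4 (CP, VIM, SERPINA3 and LCN2). Of all genes tested, 0.00479% were called higher by edgeR and 4.68% by DESeq2. VIM was 46.7, 506 and 829 CPM in miSCA7Stuffer libraries, against 57.1, 53.9 and 61.4 CPM in empty capsid libraries (log2 fold change 3.005, SE 0.81, adjusted p = 0.134). Replicate 1 was below every control and replicates 2 and 3 far above them. CP showed the same pattern with 12.6, 221 and 280.1 CPM in miSCA7Stuffer libraries, against 14.2, 16.9 and 14.9 CPM in empty capsid libraries (3.48, SE 0.91, adjusted p = 0.134).

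SERPINA3 was 55.5, 339.5 and 728 CPM in miSCA7Stuffer libraries, all above the 46.3, 37.2 and 37.2 CPM of empty capsid libraries (log2 fold change 3.22, SE 0.75, adjusted p = 0.134). TIMP1, at 13.9, 42.5 and 29.5 CPM in miSCA7Stuffer libraries, also lay above 11.6, 12.3 and 11.7 CPM in empty capsid libraries (1.28, SE 0.45, adjusted p = 0.162), as did LCN2 with 5, 12 and 18 counts in miSCA7Stuffer libraries, against 3, 0 and 2 counts (3.06, SE 1.00, adjusted p = 0.148). These 3 were the genes of the 10 whose groups did not overlap, where 12.2% of all genes lay wholly above empty capsid. The other members overlapped in replicate 1. CD44 was 88.9, 297 and 535 CPM in miSCA7Stuffer libraries, S100A10 8.05, 18.7 and 31.7 CPM, and OSMR 19.1, 40.9 and 52.4 CPM. In each of these replicates 2 and 3 were above every empty capsid library, and replicate 1 was below all of them for S100A10 and OSMR.

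CHI3L1 was 84.8, 204 and 160.3 CPM in miSCA7Stuffer libraries, against 85.4, 115 and 120.1 CPM in empty capsid libraries (log2 fold change 0.49, SE 0.36, adjusted p = 0.416). Replicates 2 and 3 were above the controls and replicate 1 just below them. GFAP was 6188, 1981 and 4489 CPM in miSCA7Stuffer libraries, against 6325, 5974 and 6022 CPM in empty capsid libraries (-0.53, SE 0.41, adjusted p = 0.440), so replicates 2 and 3 had less GFAP than any control.

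miSCA7Stuffer replicate 1 also differed in its vector reads. A vector feature of the deposited tables, whose name holds miS1 and Stfr, had 54 reads in it, or 1.64 CPM of assigned counts. Replicates 2 and 3 had 349 and 257 CPM of it, and empty capsid libraries 0.151 to 0.281 CPM. StufferOnly replicates 1, 2 and 3 had 350, 625 and 248 CPM, and intmiS1 replicates 1, 2 and 3 had 0.387, 1.44 and 0.372 CPM. AAV.miS1 libraries had 22.2 to 548 CPM, and the lowest, replicate 1, had the highest VIM of that group. Vehicle replicates 1, 2, 3 and 4 had 0.816, 11.3, 6.71 and 0.337 CPM, where the value of replicate 2 is 1 read and that of replicate 3 is 23 reads. In miSCA7Stuffer replicate 1 the summed neuronal markers were 2925 CPM, against 357 and 345 CPM in replicates 2 and 3. Its summed microglia and macrophage markers were 399 CPM, against 1398 and 1329 CPM. Without this library, and with 3 empty capsid and 3 StufferOnly libraries in the fit, 8 of the 10 genes passed against empty capsid: CP (3.998), VIM (3.51), SERPINA3 (3.70), LCN2 (3.46), CD44 (1.805), TIMP1 (1.57), S100A10 (1.24) and OSMR (0.77). Of the 21539 genes tested, 6983 were then called in either direction, so the 8 calls stand beside a large share of all genes. CHI3L1 and GFAP did not pass, and GFAP had a log2 fold change of -0.95. The part of the low vector signal in the levels of this library was not tested.

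Against StufferOnly, miSCA7Stuffer passed for 0 of the 10 genes by edgeR (CHI3L1 and TIMP1 had an unadjusted p under 0.05) and for 1 by DESeq2, CHI3L1, where DESeq2 called 0.505% of all genes lower. CHI3L1 was lower in all 3 miSCA7Stuffer libraries, at 84.8, 204 and 160.3 CPM, than in any StufferOnly library, at 490.2, 363 and 758 CPM (log2 fold change -1.84, SE 0.37, adjusted p = 0.237). OSMR, at 19.1, 40.9 and 52.4 CPM in miSCA7Stuffer libraries against 60.9, 56.7 and 60.3 CPM in StufferOnly libraries, was also wholly lower (-0.66, SE 0.31, adjusted p = 0.531). For 8.42% of all genes miSCA7Stuffer lay wholly below StufferOnly, and for 6.24% wholly above it. CP had nearly the same mean in both groups (0.15, SE 0.82, adjusted p = 0.973), and its sign changed when 1 library was left out, to -0.15 without StufferOnly replicate 1, -0.079 without miSCA7Stuffer replicate 2 and -0.41 without miSCA7Stuffer replicate 3. With the replicate number as a block it was -0.20 (adjusted p = 0.949).

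intmiS1 passed for none of the 10 genes against empty capsid, although SERPINA3, OSMR and TIMP1 lay above the controls in all 3 libraries. LCN2 did so by CPM, but on 1 count in replicate 1. By edgeR the count was 0 of 10, where SERPINA3 and LCN2 had an unadjusted p under 0.05, and by DESeq2 it was also 0, where DESeq2 called 0.128% of all genes higher. Of all genes tested edgeR called 0, and 1831 had an unadjusted p under 0.05, while without intmiS1 replicate 3 it called 1852 genes and still 0 of the 10. intmiS1 replicates 1 and 2 were counted by another program than the empty capsid libraries, so that group and program cannot be wholly told apart here.

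SERPINA3 was 61.8, 233 and 212 CPM in intmiS1 libraries, against 46.3, 37.2 and 37.2 CPM in empty capsid libraries (log2 fold change 2.07, SE 0.73, adjusted p = 0.576). All 3 libraries were above the controls, replicate 1 by little. OSMR and TIMP1 were also wholly above empty capsid, with 33.7, 46.0 and 35.4 CPM of OSMR (0.51, SE 0.30, adjusted p = 0.618) and 18.9, 25.6 and 21.1 CPM of TIMP1 in intmiS1 libraries (0.88, SE 0.42, adjusted p = 0.576). LCN2 had 1, 4 and 10 counts in intmiS1 libraries, against 3, 0 and 2 counts in empty capsid libraries (2.85, SE 1.05, adjusted p = 0.576). Its 1 count in replicate 1 equals 0.191 CPM at the lower depth of that library. This is under the 0.572 CPM that 3 counts make there, so its separation from empty capsid is not shown at this depth. By CPM, with LCN2 included, 4 of 10 were wholly above empty capsid, beside 9.52% of all genes.

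VIM was 56.8, 127 and 96.6 CPM in intmiS1 libraries, against 57.1, 53.9 and 61.4 CPM in empty capsid libraries (log2 fold change 0.70, SE 0.71, adjusted p = 0.780), and CP was 16.0, 40.7 and 27.4 CPM in intmiS1 libraries, against 14.2, 16.9 and 14.9 CPM (0.87, SE 0.79, adjusted p = 0.748). In both, replicates 2 and 3 were above every control and replicate 1 among them. CD44 was 96.1, 227 and 149 CPM and S100A10 10.49, 22.02 and 12.3 CPM in intmiS1 libraries, in the same order. CHI3L1 was 21.2, 136 and 247 CPM in intmiS1 libraries, against 85.4, 115 and 120.1 CPM in empty capsid libraries (0.34, SE 0.64, adjusted p = 0.909), with replicate 1 the lowest of the 12 Study 2 libraries, and without replicate 3 the log2 fold change turned to -0.45. GFAP was 4762, 6012 and 6504 CPM in intmiS1 libraries, against 6325, 5974 and 6022 CPM in empty capsid libraries, a log2 fold change of -0.085 that became 0.034 without replicate 1.

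Against StufferOnly, intmiS1 was lower for all 10 genes in log2 fold change (median -1.52, against -0.06 over all 21501 genes tested), and edgeR called 2 of them. VIM (-3.28, SE 0.76, adjusted p = 0.0236) and TIMP1 (-1.43, SE 0.42, adjusted p = 0.0492) passed, where 8.46% of all genes were called lower and 3.4% higher. CHI3L1, CP, VIM, CD44, SERPINA3, OSMR and TIMP1, 7 of the 10, were wholly lower in intmiS1 than in StufferOnly, as were 22.6% of all genes. CP (-2.47, SE 0.82, adjusted p = 0.0735), SERPINA3 (-2.21, SE 0.73, adjusted p = 0.0737) and CHI3L1 (-1.99, SE 0.66, adjusted p = 0.0748) had the next smallest p. DESeq2 called 6 of the 10, where it called 8.71% of all genes lower. The 2 edgeR calls fell to 0 without StufferOnly replicate 2 or 3 or intmiS1 replicate 1 or 2.

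**Figure D4:**
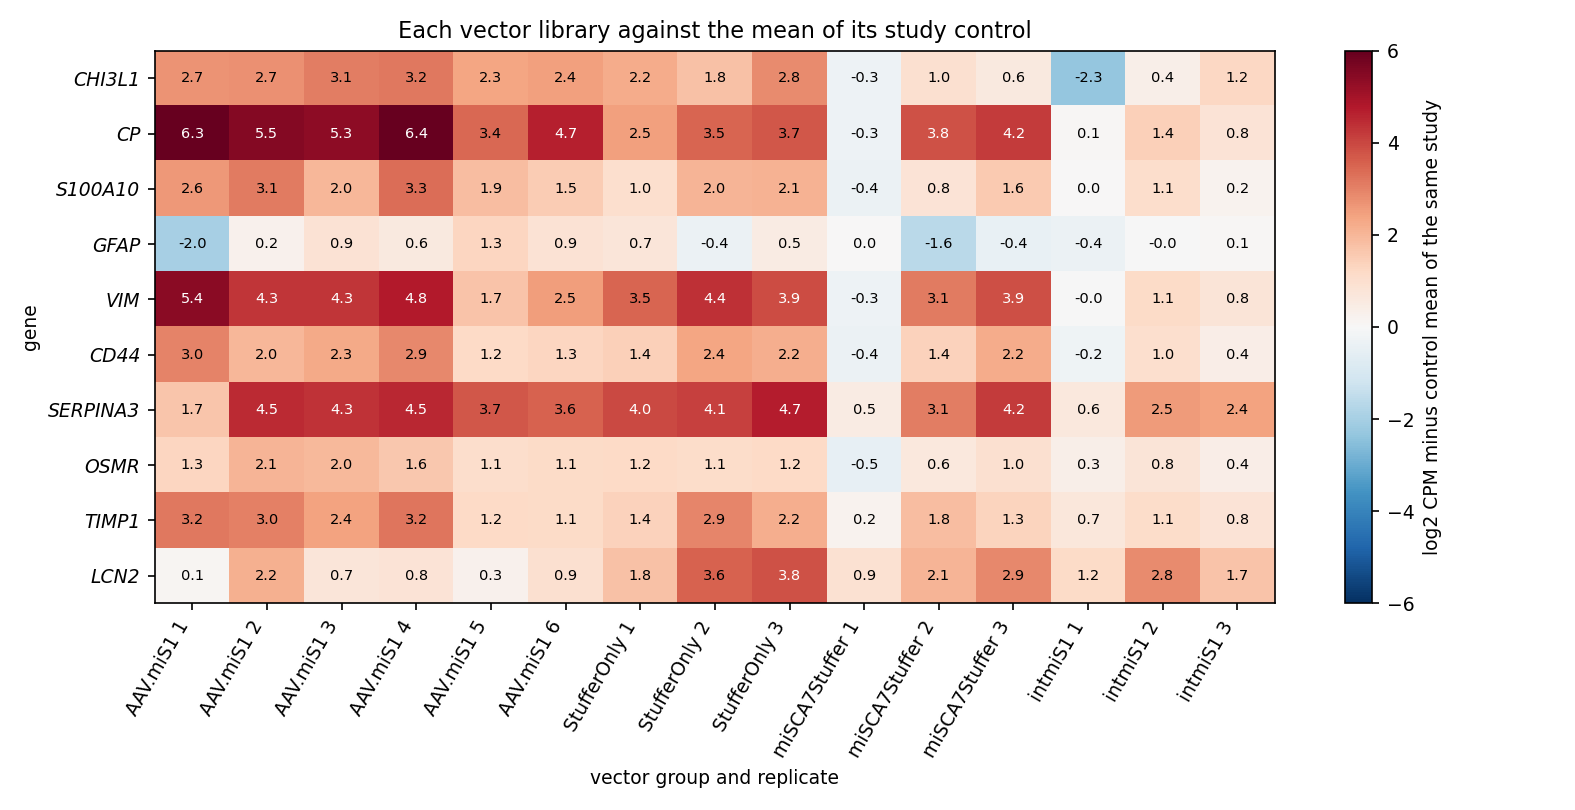
Log2 CPM of each gene in each of the 15 vector libraries minus the mean of the control libraries of the same study (colour and printed value, log CPM with a prior count of 2). AAV.miS1 and StufferOnly columns are positive for every gene but GFAP, which is negative in AAV.miS1 replicate 1 and StufferOnly replicate 2, and miSCA7Stuffer replicate 1 is pale throughout, from -0.48 for OSMR to 0.93 for LCN2.

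Counted by library over the 9 genes other than LCN2, the number above every control library of the same study was 8 to 9 in the 6 AAV.miS1 libraries, where 19.7% to 37.1% of all genes tested were above every vehicle library. It was 8 to 9 in the 3 StufferOnly libraries, where 37.3% to 42.3% of all genes were above every empty capsid library. In miSCA7Stuffer replicates 1, 2 and 3 it was 2, 8 and 8, beside 32.9%, 42.4% and 39.8% of all genes, and in intmiS1 replicates 1, 2 and 3 it was 3, 8 and 9, beside 35.1%, 35.8% and 25.6%. In miSCA7Stuffer replicate 1 and intmiS1 replicate 1 the members' share was thus near that of all genes. GFAP was the gene missing in StufferOnly replicate 2, miSCA7Stuffer replicates 2 and 3 and intmiS1 replicate 2. The mean levels in Study 2 ran StufferOnly, miSCA7Stuffer, intmiS1, empty capsid from high to low for 7 of the 10 genes. CP was highest in miSCA7Stuffer, OSMR was higher in intmiS1 than in miSCA7Stuffer, and GFAP was lowest in miSCA7Stuffer and second in empty capsid. Of the neighbours in that order, miSCA7Stuffer against StufferOnly and intmiS1 against empty capsid passed for none of the 10 by edgeR, and intmiS1 against miSCA7Stuffer was not tested.

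Whether the vectors of the 2 studies differed in their effect was tested as a difference of differences over 9 genes, each vector against its own control. For AAV.miS1 less intmiS1, edgeR called 0 of 9, although 7 had an unadjusted p under 0.05, and DESeq2 called 3, where it called 1.05% of all genes higher. Those 3 were CP (difference 3.78 on the log2 scale, SE 1.06, adjusted p = 0.152 by edgeR), VIM (3.55, SE 1.04, adjusted p = 0.152) and CHI3L1 (2.38, SE 0.70, adjusted p = 0.152). Of 16537 genes in that comparison edgeR called 0, and 2865 had an unadjusted p under 0.05. For AAV.miS1 less StufferOnly, edgeR and DESeq2 called 0 of 9, and 0 had an unadjusted p under 0.05 by edgeR. DESeq2 called 0.0194% of all genes higher there. The differences ran from -0.31 (SE 0.98) for SERPINA3 to 1.42 (SE 1.02) for CP, with GFAP at 0.29 (SE 0.68). With SEs of 0.39 to 1.02 these values do not show that the 2 vectors act alike.

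The genes around the 10 moved in part. Among receptors and signals of the interleukin-6 family and STAT3, 6 of 10 tested rose in AAV.miS1 and 5 of 13 in StufferOnly, with medians of 0.84 and 0.91. Of all genes tested, 7.22% were called higher in AAV.miS1 and 11.6% in StufferOnly. SOCS3, the feedback inhibitor that STAT3 induces, was 9.47 to 99.0 CPM in AAV.miS1 libraries, against 0 to 4.30 CPM in vehicle libraries (log2 fold change 4.05, adjusted p = 0.0275). JAK2, a kinase of these receptors, and IL6R, the receptor of interleukin-6, rose by 1.59 and 1.55 in AAV.miS1, both with overlap. In StufferOnly, SOCS3 was 15.5 to 27.9 CPM, against 0.602 to 1.46 CPM in empty capsid libraries (4.17, adjusted p = 0.0236). OSM, the ligand of OSMR, rose to 2.14 to 4.41 CPM in StufferOnly libraries, against 0 to 0.199 CPM in empty capsid libraries (4.75, adjusted p = 0.0248), and TYK2, another kinase of the family, rose by 0.94 (adjusted p = 0.0202).

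Binding partners and relatives of the 10 showed 6 of 16 tested higher in AAV.miS1, and 8 higher and 1 lower of 19 in StufferOnly. Beside them, 7.22% of all genes were called higher in AAV.miS1, and 11.6% higher and 3.81% lower in StufferOnly. ANXA2, the partner of S100A10, was 61.2 to 499 CPM in AAV.miS1 libraries, against 10.6 to 41.3 CPM in vehicle libraries (log2 fold change 3.97, adjusted p = 0.0275). MMP14, a membrane-bound metalloproteinase, rose by 4.13 in AAV.miS1 and by 4.37 in StufferOnly, and MMP2, which it activates, by 3.90 in AAV.miS1. In StufferOnly, MMP9, a secreted metalloproteinase that TIMP1 inhibits, was 42.9 to 417 CPM, against 0.133 to 0.547 CPM in empty capsid libraries (9.16, adjusted p = 0.0206). TIMP3, a relative of TIMP1, moved the other way, with 112 to 155 CPM in StufferOnly libraries, against 239 to 266 CPM in empty capsid libraries (-0.92, adjusted p = 0.0194). Against StufferOnly, intmiS1 had 6 of 19 lower and 1 higher, beside 8.46% and 3.4% of all genes. The log2 fold changes were -3.63 for MMP14, -8.27 for MMP9 and 0.80 for TIMP3.

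Lists of astrocyte states first drawn up in mouse gave mixed counts. Beside the counts that follow, 7.22% of all genes were called higher in AAV.miS1 and 11.6% in StufferOnly. Of the other pan-reactive genes, 2 of 9 tested rose in AAV.miS1 and 2 of 10 in StufferOnly, with medians of 0.53 and 0.56. In a list this short, 2 of 10 is little above the StufferOnly share. The 2 in AAV.miS1 were THBS1, a matrix glycoprotein (log2 fold change 1.996, adjusted p = 0.0487), and CXCL10, an interferon-induced chemokine with 161 counts over the AAV.miS1 libraries against 1 over the vehicle libraries. The 2 in StufferOnly were CXCL10 (4.65, adjusted p = 0.0284) and NES, the filament nestin (1.84, adjusted p = 0.0357). Of the A1-type genes, 4 of 7 rose in AAV.miS1, led by SERPING1, the C1 inhibitor (2.88, adjusted p = 0.0181), PSMB8, an immunoproteasome subunit (3.29, adjusted p = 0.0275), and the complement protein C3 (1.43, adjusted p = 0.0275). In StufferOnly 3 of 7 rose, SERPING1 (2.49), PSMB8 (2.13) and SRGN, a proteoglycan of blood cell granules (1.69). Of the A2-type genes, EMP1, an epithelial membrane protein, and CD14, the endotoxin co-receptor of myeloid cells, rose in both, 2 of 7 tested in AAV.miS1 (3.33 and 3.41) and 2 of 9 in StufferOnly (2.76 and 2.73).

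Markers of other cells moved in the same libraries. Beside the edgeR counts that follow, 7.22% of all genes were called higher and 0.284% lower in AAV.miS1. In StufferOnly these shares were 11.6% and 3.81%. Of the microglia and macrophage markers 8 of 11 tested rose in AAV.miS1, with a summed level of 727 to 6369 CPM, against 459 to 887 CPM in vehicle libraries, and 8 of 11 rose in StufferOnly, with 1554 to 2555 CPM, against 453 to 560 CPM in empty capsid libraries. T cell markers rose for 2 of 5 and 6 of 8, and pericyte and fibroblast markers for 3 of 8 in both. The 3 in AAV.miS1 were COL1A1, COL1A2 and COL3A1, of which COL1A1 and COL1A2 overlapped vehicle. Another of the 8, RGS5, was called lower in StufferOnly (log2 fold change -0.94). The marker sums reached 172 CPM for T cells and 1602 CPM for pericytes and fibroblasts in AAV.miS1 libraries, against at most 11.6 and 442 CPM in vehicle libraries. Oligodendrocyte markers fell for 3 of 5 in StufferOnly, among them MBP (log2 fold change -1.13) and MOBP (-1.27), with a summed level of 14919 to 17322 CPM, against 25188 to 37803 CPM in empty capsid libraries. In AAV.miS1 edgeR called 0 of these 5, with a median of -0.64. Neuronal markers were called for 0 of 6 by edgeR in both, with medians of -1.06 in AAV.miS1 and -0.996 in StufferOnly, and summed to 1156 to 2466 CPM in StufferOnly, against 2708 to 3692 CPM in empty capsid libraries. Endothelial markers rose for 0 of 8 in AAV.miS1 by edgeR and 1 of 8 by DESeq2, and for 2 of 8 in StufferOnly. The part of these cells in the levels of the 10 genes was not tested.

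Over the 15 vector libraries, the genes whose changes from the control mean lay closest to those of GFAP were MAOB, the monoamine oxidase of astrocytes (root mean square difference 0.31 on the log2 scale), RASD1, a Ras-like GTPase (0.37), and CNN3, an actin-binding calponin (0.44), where the median of the 12466 genes compared was 1.03. MAOB was lowest in AAV.miS1 replicate 1, at 30.5 CPM, and 152 to 241 CPM in the other 5 AAV.miS1 libraries, against 101 to 119 CPM in vehicle libraries. For CHI3L1 the closest were KCNQ1, a potassium channel (0.70), GMFG, an actin regulator of blood cells (0.75), and RILPL2 (0.79), with a median of 2.15. KCNQ1, GMFG and RILPL2 had 0 counts in the shallow vehicle replicate 2, at -2.39, -2.06 and -2.23 from the vehicle mean. That library lowers the mean from which their AAV.miS1 changes are taken, so the likeness rests in part on it. Among the 10 genes themselves, S100A10 and CD44 lay closest (0.46), then CD44 and TIMP1 (0.52), and CP and GFAP lay farthest apart (4.10). These are descriptions over libraries that share their controls.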

How the data were processed

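The deposited counts per gene of 22 DCN libraries were analysed, and the small RNA samples were not analysed here. The submitters' processing notes name STAR 2.6.0c and DESeq2 as the authors' tools, and name neither a genome build nor an annotation release. Per the file headers, featureCounts counted a read in every gene it overlapped, with no strand setting stated. For Study 1 the reverse-strand STAR column was used, and for intmiS1 replicates 1 and 2 the unstranded one. Counts were tested with edgeR 4.0.16 in R 4.3.3 (filterByExpr with minimum count 10 and total 15, TMM, quasi-likelihood F test, Benjamini-Hochberg over all genes at 0.05, prior count 0.125), with SE taken as the fold change over the root of F. DESeq2 1.42.0 was an alternative. Study 1 was fitted alone, 9 featureCounts libraries together, 12 libraries for intmiS1 and 22 for differences of effects. The fits were tested on simulated data. Deviations from the group means over genes correlated at 0.436, 0.177 and 0.246 for same-numbered miSCA7Stuffer and StufferOnly libraries. Differently numbered libraries also correlated, at 0.234 for miSCA7Stuffer replicate 2 with StufferOnly replicate 3 and 0.120 for miSCA7Stuffer replicate 3 with StufferOnly replicate 2. The labels name no pairs, the main fits used none, and the replicate number entered as a block only as an alternative. No other 2 groups had all 3 pairs over 0.1. Floors of 3 counts cover counting error only. The 10 genes and the lists were chosen with earlier results of these data known. All 10 are named, with up to 3 called genes of smallest p from each related list. ATXN7 and the ratios within libraries were added after values had been seen. Python 3.11.15, pandas 2.3.3 and matplotlib 3.10.9 were used.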

Additional observations from a re-analysis of the deposited data

Results flagged for a closer look

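LCN2 in AAV.miS1 stood out because 1 library lay far from the other 5: replicate 2 had 3.10 CPM (12 counts), and the others had 0.242 to 0.949 CPM (1 to 3 counts). The screen covered the 10 genes in AAV.miS1 and vehicle, 20 groups in all, found this 1, and picks out about 1 group in 20 by chance. The cause was not tested.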

How the results depend on the processing

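Over the 8 comparisons, 822 alternative values of single genes were computed: 679 kept direction and call, 110 lost the call, 27 gained it and 6 changed sign. The sign changes were CP in miSCA7Stuffer against StufferOnly (0.15 as reported; -0.41 to 0.78 leaving out 1 library, and -0.20 with the replicate block), GFAP in intmiS1 against empty capsid (-0.18 to 0.034 leaving out 1 library) and CHI3L1 there (-0.45 to 0.84). Leaving out 1 library moved the calls to between 0 and 8 in AAV.miS1, 0 and 7 in StufferOnly, 0 and 8 in miSCA7Stuffer against empty capsid and 0 and 2 in intmiS1 against StufferOnly; why was not tested.

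For AAV.miS1 the count of 8 became 5 with the unmapped share as a term. Within the libraries under 15% it was 0 of 9, but that fit has 1 vehicle library and called 0 of all 14830 genes, so its count says nothing about stability. This alternative was chosen after seeing the data, as was fitting all 12 Study 2 libraries, which changed no count. DESeq2 called 4 for miSCA7Stuffer against empty capsid, 1 against StufferOnly, 3 for AAV.miS1 less intmiS1 and 6 for intmiS1 against StufferOnly. That last count was 1 with RLE scaling, 1 without the filter, 1 with the reverse column, 4 with the compared groups alone and 5 with the replicate block. DESeq2 put the median of all genes at -0.15 in AAV.miS1 against vehicle, and at -0.33 and -0.13 in the differences of effects, against 0.02 by edgeR in the first. Same-numbered libraries correlated over 0.1 in all 3 pairs of miSCA7Stuffer and StufferOnly and in 2 of 15 pairs of the other groups, which share only a number, and 6 of 12 libraries correlated best with their own number. The block left 8 calls for StufferOnly and 0 for miSCA7Stuffer against either group and for intmiS1 against empty capsid. Vehicle replicate 2, with 87741 counts, cannot show genes below about 31.0 CPM, and LCN2 in Study 1 is below what the depth can compare.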
